A study of Mus musculus with 9 samples.

Results

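Transcripts of 10 transcription factor genes of the megakaryocyte and erythroid lineages (Gata1, Klf1, Gfi1b, Tal1, Zfpm1, Nfe2, Fli1, Runx1, Lmo2 and Lyl1) were examined in 3 populations sorted from mouse haematopoietic stem cell (HSC) cultures. The genes were chosen by symbol, and each of the 10 had a row among the 49585 genes of the deposited count table. RNA sequencing gave 9 libraries, 3 replicates for each of the 3 populations. All groups came from wild-type (WT) C57BL/6 mice, whose age is not given in the labels. The starting cells were CD34-CD150+KSL bone marrow cells, where KSL means lineage-negative cells with Kit and Sca-1 on their surface, and all groups were grown in F12 medium with 0.1% polyvinyl alcohol (PVA) in place of serum albumin, ITS supplement and cytokines that included 10 ng/ml stem cell factor (SCF). The culture lasted 10 days in the series description and a week in the growth protocol.

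The populations were CD201+CD150+CD48-KSL cells (CD201+CD48- below), CD201+CD150+CD48+KSL cells (CD201+CD48+) and CD201-KSL cells (CD201-). For the last of these the gate is uncertain, since the sample titles also list CD150+CD48+ and the treatment label has CD201-KSL alone. CD201, encoded by Procr, is a surface protein that marks HSCs in mouse marrow and in culture, and CD48 appears on progenitors as they leave the stem cell state. No label says whether the replicates came from separate cultures or animals, so the p-values measure the spread between these libraries, which may be technical.

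Megakaryocytes and red cells arise from shared progenitors, and a small circuit of transcription factors directs both fates. GATA1 works with its cofactor FOG1 (Zfpm1) and takes over from GATA2 at many sites as stem cells mature. TAL1 or its relative LYL1 joins LMO2 and a GATA factor in one DNA-binding complex, while KLF1 favours the erythroid fate and FLI1 the megakaryocytic fate. Several of these factors, among them RUNX1, TAL1, LMO2 and FLI1, are also needed by HSCs themselves.

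The promoters of the 3 genes at the centre of the comparisons below were read from RefSeq (GRCm38.p6, the assembly of mm10), each from 250 bases before to 50 bases after the annotated start. Gata1 lies on the minus strand (chrX:7967861-7968160), Klf1 on the plus strand (chr8:84901732-84902031) and Gfi1b on the minus strand (chr2:28621933-28622232). Capitals mark CACCC-type matches (CCNCNCCC) in Gata1 and GATA matches (AGATAA, with T also allowed as the first letter and G as the last) in Klf1 and Gfi1b, on either strand and with overlaps allowed.
Gata1: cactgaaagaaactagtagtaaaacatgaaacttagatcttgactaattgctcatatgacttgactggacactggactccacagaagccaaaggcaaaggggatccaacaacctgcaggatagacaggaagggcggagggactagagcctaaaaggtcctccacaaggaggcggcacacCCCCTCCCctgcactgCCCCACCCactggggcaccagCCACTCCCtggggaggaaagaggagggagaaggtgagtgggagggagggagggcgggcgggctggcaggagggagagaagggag
Klf1: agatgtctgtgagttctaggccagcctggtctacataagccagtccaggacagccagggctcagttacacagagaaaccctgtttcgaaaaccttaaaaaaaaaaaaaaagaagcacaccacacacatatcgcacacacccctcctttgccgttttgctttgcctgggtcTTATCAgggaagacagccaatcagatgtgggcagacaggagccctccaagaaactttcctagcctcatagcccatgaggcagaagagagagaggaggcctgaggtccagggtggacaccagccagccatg
Gfi1b: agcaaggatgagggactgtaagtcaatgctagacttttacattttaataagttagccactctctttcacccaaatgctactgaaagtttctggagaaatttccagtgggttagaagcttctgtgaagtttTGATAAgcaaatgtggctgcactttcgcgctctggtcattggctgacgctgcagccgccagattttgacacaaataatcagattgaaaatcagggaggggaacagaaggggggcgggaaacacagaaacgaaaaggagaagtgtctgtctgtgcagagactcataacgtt
The Gata1 window held 3 CACCC-type matches, the class of sequence that KLF and SP proteins bind, and no GATA match. The Klf1 and Gfi1b windows held 1 GATA match each. Promoter windows were found for 7 of the 10 genes, and Tal1 and Runx1 had more than 1 start, which gave 9 windows. A GATA match was present in 3 of these 9 windows, against 29.8% of all 32851 RefSeq promoter windows. CACCC-type matches were present in 7 of 9 windows against 49.5%, E-boxes (CANNTG) in 6 of 9 against 72.3%, the ETS sequence CGGAAG in 2 of 9 against 16.9%, and the RUNX sequence TGTGGT in 2 of 9 against 16.8%. These matches describe the letters of the windows and are not measurements of binding.

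Total counts ran from 3810123 to 7072885 per library, with 13663 to 17845 genes detected. Procr averaged 63.2 CPM ± 3.74 (SD, n = 3; CPM is the read count scaled to library size) in the CD201+CD48- libraries, 26.5 ± 2.16 in the CD201+CD48+ libraries and 3.56 ± 1.07 in the CD201- libraries, the order of the sort. Cd48 averaged 5.86 ± 0.671, 83.3 ± 7.22 and 124.7 ± 4.25 CPM in the same order. Replicate 3 of the CD201- cells stood apart from its group: 584 genes differed by over 2-fold between it and the mean of the other replicates, against 225 genes between those 2. Where a call of the 10 genes turned on that library, its value without the library is given beside it. For counts over gene lists this is given for some only, so a count without such a value may also change. Libraries were compared by edgeR's quasi-likelihood test over 11619 genes with Benjamini-Hochberg adjustment, and a gene is called higher or lower at an adjusted p under 0.05. The 3 comparisons share libraries and are not independent of each other.

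The genes of the circuit did not move as a block. Of the 9 that could be tested, Fli1 and Lmo2 were higher and Gfi1b and Tal1 lower in the CD201+CD48- than in the CD201- population. These 4 calls stand against 48.1% of all tested genes called in that comparison. In CD201+CD48+ cells, Lmo2 was higher and 5 genes (Gata1, Gfi1b, Tal1, Zfpm1 and Nfe2) were lower than in CD201- cells, against 29.1% of all tested genes called. Between the CD201+ populations, Gata1 was higher and Gfi1b lower in CD201+CD48- cells, and these 2 calls of 9 stand against 15.4% of all tested genes. By direction, calls over all tested genes came to 24.2% higher and 23.9% lower, 14.8% higher and 14.3% lower, and 9.05% higher and 6.31% lower in the 3 comparisons. The median log2 difference of the 9 genes was -0.17, -0.21 and 0.20 in the 3 comparisons, against 0.0032, -0.0022 and -0.0054 over all tested genes.

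**Figure D1:**
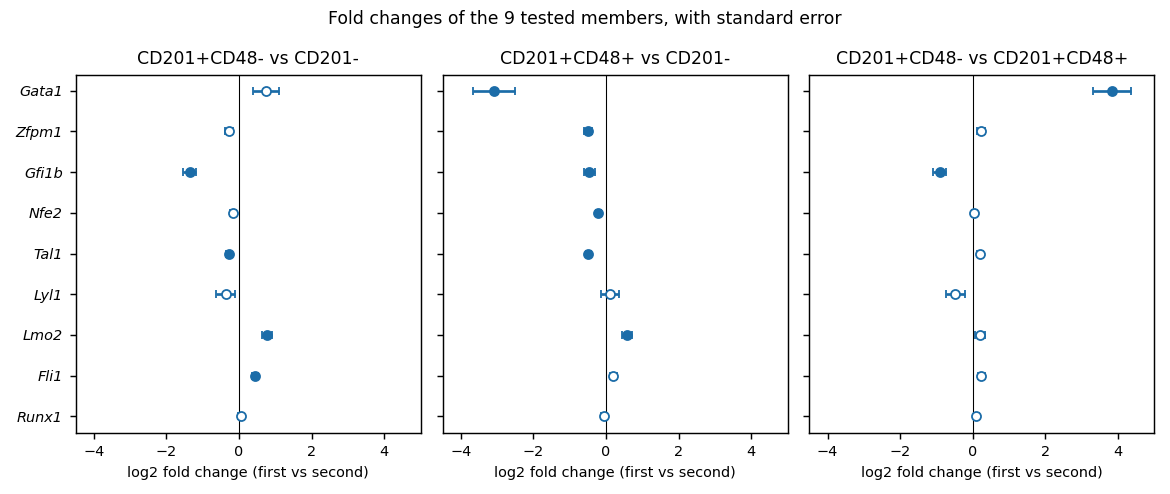
Log2 differences of the 9 tested transcription factor genes in the 3 comparisons (first population over second), with bars of 1 standard error from the edgeR fit and filled points at an adjusted p under 0.05. Gata1 lies farthest from zero in the comparisons that involve CD201+CD48+ cells, at -3.09 and 3.83, and Gfi1b in that of CD201+CD48- with CD201- cells, at -1.37.

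Gata1 (chromosome X, 7959260 to 7976663 in GRCm38.p6), the zinc finger factor that drives erythroid and megakaryocyte maturation, was scarce in all libraries and nearly missing from CD201+CD48+ cells. In CD201+CD48- cells it stood at 4.06, 3.79 and 4.65 CPM in replicates 1, 2 and 3, from 23, 15 and 21 reads. In CD201+CD48+ cells it stood at 0.171, 0 and 0.55 CPM, from 1, 0 and 4 reads. In CD201- cells it stood at 2.43, 1.94 and 3.07 CPM, from 11, 9 and 14 reads. The 3 groups did not overlap, and the CD201+CD48+ population, which lies between the others by Procr and Cd48, was the lowest. Non-overlapping values were found for 7 of the 9 genes between CD201+CD48- and CD201- cells, 5 of 9 between CD201+CD48+ and CD201- cells and 5 of 9 between the CD201+ populations, against 55.2%, 41.7% and 40.7% of all tested genes. In the first comparison 3 were higher and 4 lower, beside 28% and 27.2% of all tested genes, in the second 1 was higher and 4 lower, beside 21.4% and 20.3%, and in the last 4 were higher and 1 lower, beside 21% and 19.7%.

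Gata1 was lower in the CD201+CD48+ than in the CD201- population by a log2 difference of -3.09 ± 0.58 (SE, adjusted p = 0.00106, edgeR). The CD201+CD48- level exceeded the CD201+CD48+ level by 3.83 ± 0.52 on the log2 scale (adjusted p = 0.000119, edgeR). With reads pooled over replicates, the CD201+CD48- level was 15.4 times the CD201+CD48+ level (95% exact counting interval 6.23 to 49.1) and the CD201- level was 9.12 times it (3.55 to 29.9). The difference of CD201+CD48- from CD201- cells, 0.75 ± 0.36, did not pass (adjusted p = 0.0999, edgeR), with a pooled ratio of 1.69 (1.09 to 2.65). It did pass when libraries were scaled by total counts alone (0.92, adjusted p = 0.0454). Gata1 passed the filter on low counts only through the groups where it is higher, with 3 CD201+CD48- and 2 CD201- libraries above the minimum and no CD201+CD48+ library. Reads carry no molecular identifiers, so the intervals cover counting error only. In bulk libraries such as these, fewer cells that express a gene and less RNA per cell cannot be told apart.

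**Figure D2:**
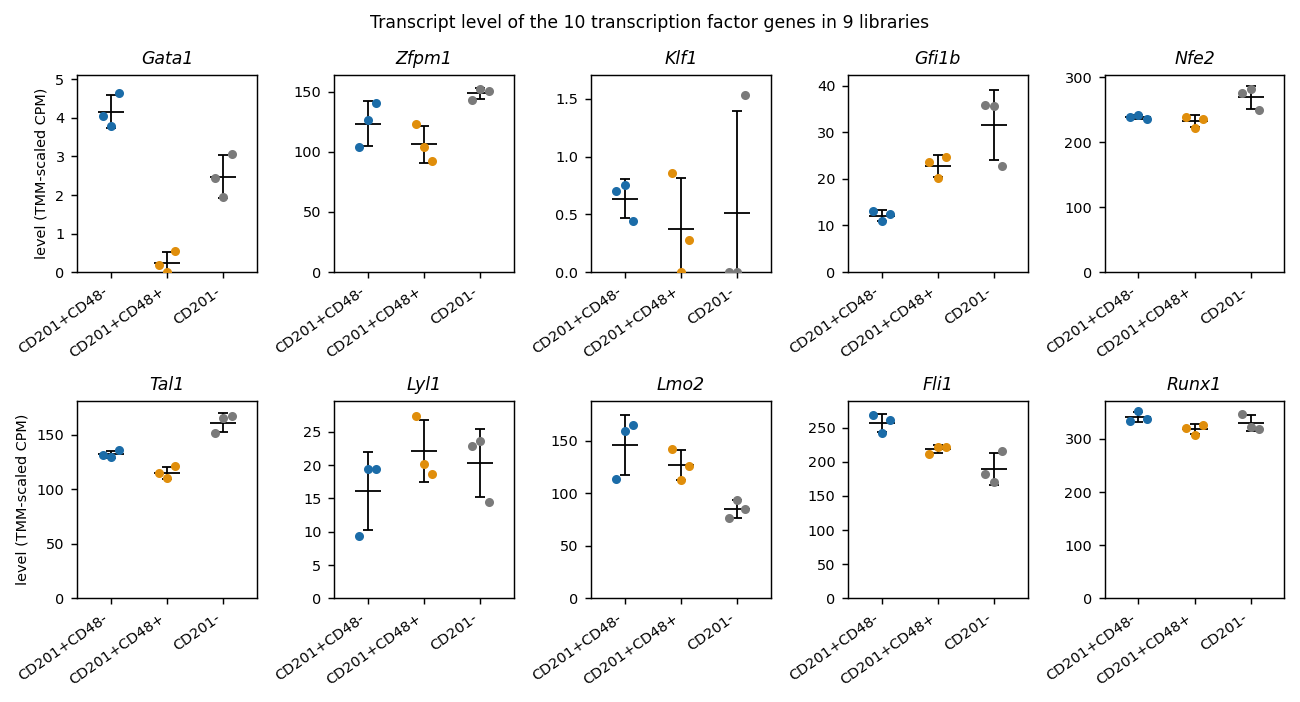
Level of each of the 10 transcription factor genes (TMM-scaled CPM, linear axes from 0, each panel with its own range) in the 3 populations, with 1 point per library, a line at the group mean and bars of 1 SD (n = 3). Gata1 is lowest in CD201+CD48+ cells, Gfi1b rises from CD201+CD48- to CD201- cells, and Runx1 stays between 307.9 and 351.7 CPM in every library.

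Zfpm1 (chromosome 8, 122281856 to 122337862) encodes FOG1, the cofactor that GATA1 needs in both lineages, and its transcripts averaged 25.8, 22.2 and 31.1 CPM per kilobase of exon in CD201+CD48-, CD201+CD48+ and CD201- cells, against 1.68, 0.0968 and 0.999 for Gata1. Zfpm1 stood at 103.8, 126.6 and 140.4 CPM in the CD201+CD48- replicates, 123.0, 103.8 and 92.3 in the CD201+CD48+ replicates, and 143.4, 152.3 and 150.6 in the CD201- replicates. All CD201- libraries lay above all CD201+ libraries, and the CD201+ populations overlapped. Zfpm1 was lower in the CD201+CD48+ than in the CD201- population, by -0.49 ± 0.11 (log2, adjusted p = 0.00515, edgeR). Its difference of -0.27 ± 0.11 between CD201+CD48- and CD201- cells did not pass (adjusted p = 0.062, edgeR) but did in 4 of 16 alternative settings, and neither did that of 0.22 ± 0.11 between the CD201+ populations pass (adjusted p = 0.239).

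Gata2, the GATA factor of stem cells and early progenitors that GATA1 replaces, stood at 26.5, 23.3 and 33.1 CPM per kilobase in the same populations. Its mean level was 213.0 CPM ± 6.87 in the CD201+CD48- group, 186.6 ± 14 in the CD201+CD48+ group and 265.3 ± 7.59 in the CD201- group (SD, n = 3). Relative to CD201- cells, Gata2 was lower in each CD201+ population, by -0.32 ± 0.08 and -0.51 ± 0.08 (log2, adjusted p = 0.00266 and 0.000138, edgeR), and the call in CD201+CD48- cells ended when libraries were scaled by total counts alone (-0.15, adjusted p = 0.118). The log2 ratio of Gata1 to Gata2 reads within a library averaged -5.64 ± 0.19 in CD201+CD48-, -9.56 ± 1.41 in CD201+CD48+ and -6.70 ± 0.32 in CD201- cells (SD, n = 3, with 0.5 added to each count). The same ratio of Gata1 to Spi1, whose product PU.1 and GATA1 oppose each other in myeloid and erythroid choice, averaged -4.04 ± 0.17, -7.91 ± 1.33 and -4.38 ± 0.36. Both ratios had their lowest mean in CD201+CD48+ cells. Ratios of reads follow gene length as well as level, so they are compared between populations only, and they were not tested.

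The genes whose pattern over the 9 libraries lay closest to that of Gata1 were Mfsd2b, Itga2b and Itgb3. Likeness was the root mean square difference of log2 CPM after centring each gene, among genes with a mean of at least 10 CPM, and came to 0.47, 0.60 and 0.65. Mfsd2b, which exports sphingosine-1-phosphate from red cells and platelets, averaged 20.6 CPM ± 2.03 in CD201+CD48-, 2.27 ± 0.791 in CD201+CD48+ and 9.53 ± 0.875 in CD201- cells. Itga2b and Itgb3 encode the subunits of the platelet fibrinogen receptor and are described with the megakaryocyte genes below. Among the other members of the circuit the closest to Gata1 was Tal1, at 1.18, and the farthest was Gfi1b, at 1.62. Zfpm1, Runx1, Fli1 and Nfe2 lay near Tal1, at 1.20, 1.26, 1.26 and 1.27. The measure counts the size of variation, so genes that vary little lie at similar distances from Gata1.

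Klf1 (chromosome 8, 84901982 to 84905291), the erythroid factor that switches on the adult beta-globin gene, was barely detected and could not be tested. It gave 4, 3 and 2 reads in the CD201+CD48- replicates, 5, 0 and 2 in the CD201+CD48+ replicates, and 0, 0 and 7 in the CD201- replicates. All reads of the CD201- group came from replicate 3, the library that stood apart. A count of 0 in a library still allows up to 3 reads, or 0.567 to 0.664 CPM in the libraries without a Klf1 read. Pooled over replicates, the CD201+CD48- level of Klf1 was 1.25 times that of CD201- cells (95% exact counting interval 0.414 to 3.94) and 1.67 times that of CD201+CD48+ cells (0.555 to 5.29), so no difference was detectable at this depth. The former ratio rests on CD201- replicate 3, without which the CD201- group has no read of Klf1. Relative to Fli1, the factor it opposes, Klf1 averaged a log2 read ratio of -8.46 ± 0.40, -9.45 ± 1.69 and -9.45 ± 2.09 in CD201+CD48-, CD201+CD48+ and CD201- cells (SD, n = 3).

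Genes of red cell maturation were mixed in direction. Of 44 such genes 25 could be tested, and 8 were higher and 7 lower in the CD201+CD48- than in the CD201- population, against 24.2% and 23.9% of all tested genes. Their counts were 5 higher and 6 lower for CD201+CD48+ against CD201- cells, beside 14.8% and 14.3% of all tested genes. Between the CD201+ populations they were 3 higher and 5 lower, beside 9.05% and 6.31%. That last split was not stable: without CD201- replicate 3 it was 6 higher and 5 lower, and without any 1 of the 6 CD201+ libraries the number higher was 0 or 1. The median log2 difference of the list was 0.05, -0.08 and 0.11. Genes of late red cells lay far apart in level. Hbb-bt, an adult beta-globin gene whose reads may be shared with its near-identical copy Hbb-bs, averaged 206.3 CPM ± 13.1 in CD201+CD48-, 137.6 ± 6.95 in CD201+CD48+ and 74.0 ± 23.7 in CD201- cells. Relative to CD201- cells it was higher by 1.48 ± 0.18 and 0.90 ± 0.18 (log2, adjusted p = 3.03e-05 and 0.0029, edgeR). Hbb-bs averaged 2.79, 0.955 and 1.09 CPM in CD201+CD48-, CD201+CD48+ and CD201- cells. The alpha-globin gene Hba-a1 had no read in any library, and Hba-a2 gave 2, 2 and 1 reads in the same order. How far the Hbb-bt reads stand for globin transcripts was not tested. Over 3 libraries each, Alas2, the first enzyme of red cell haem synthesis, gave 1, 0 and 0 reads in CD201+CD48-, CD201+CD48+ and CD201- cells. Slc4a1, the anion exchanger of the red cell membrane, gave 0, 2 and 0 reads in the same order. The list's summed level ran from 2023 to 2044 CPM in CD201+CD48-, 1768 to 1845 in CD201+CD48+ and 1607 to 1701 in CD201- cells.

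The called erythroid genes with the smallest p-values included genes that HSCs also use. Bcl11a, a repressor of fetal globin that also acts in HSCs and lymphocytes, averaged 300.8 CPM ± 9.63 in CD201+CD48-, 248.7 ± 1.16 in CD201+CD48+ and 116.3 ± 13.3 in CD201- cells. Its log2 difference from CD201- cells was 1.37 ± 0.08 and 1.10 ± 0.08 (adjusted p = 5.15e-09 and 1.97e-07, edgeR). Tfrc, the transferrin receptor that brings iron into dividing and erythroid cells, was lower by -0.86 ± 0.08 and -0.57 ± 0.08 in the CD201+ populations (adjusted p = 5.1e-07 and 7.71e-05). Hemgn, a nuclear protein of early erythroid cells, averaged 49.9 ± 3.59, 68.5 ± 1.32 and 99.5 ± 9.99 CPM, with the 3 groups apart. Its differences were -0.99 ± 0.09 and -0.54 ± 0.09 from CD201- cells and -0.46 ± 0.09 between the CD201+ populations (adjusted p = 5.21e-07, 0.00036 and 0.00362).

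Genes of platelets and megakaryocytes followed another course. Of 35 tested, 26 were higher and 2 lower in the CD201+CD48- than in the CD201- population, and 2 were higher and 16 lower in the CD201+CD48+ than in the CD201- population. Between the CD201+ populations, 28 were higher in CD201+CD48- cells and 1 was lower. Gp1bb, Alox12, F2rl2, Gp6 and Clec1b passed the filter on low counts only through CD201+CD48- libraries, which favours calls of these genes as higher there. With only genes averaging at least 10 CPM, which tests fewer genes, 17 and 18 were higher in CD201+CD48- cells in the first and last comparisons. Without CD201- replicate 3, the lower counts in the first and second were 4 and 19, and the higher counts in the second and last were 3 and 32. For the direction that prevailed in each comparison, the share of all tested genes called was 24.2%, 14.3% and 9.05%. The list's median log2 difference was 1.08, -0.43 and 1.57 in the 3 comparisons. Its summed level was 5145 to 5464 CPM in CD201+CD48-, 3036 to 3108 in CD201+CD48+ and 3719 to 3835 in CD201- libraries. The lowest sums were those of CD201+CD48+ cells, and a link of the sums to Gata1 was not tested.

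Itga2b, the integrin alpha-IIb chain that appears early in the megakaryocyte lineage and is a target of GATA1, stood at 300.1, 292.3 and 302.2 CPM in the CD201+CD48- replicates. It stood at 86.6, 77.1 and 73.4 CPM in the CD201+CD48+ replicates and at 364.8, 366.9 and 336.6 CPM in the CD201- replicates. The CD201+CD48+ libraries were the lowest with a wide margin, by -2.17 ± 0.08 against CD201- cells and 1.92 ± 0.08 in favour of CD201+CD48- cells (log2, adjusted p = 1.39e-10 and 2.86e-10, edgeR). Against CD201- cells, CD201+CD48- cells had slightly less Itga2b (-0.26 ± 0.08, adjusted p = 0.0119), a call that ended with scaling by total counts alone (adjusted p = 0.384). Itgb3, its beta-chain partner, averaged 235.1 ± 39.3, 31.2 ± 1.33 and 66.6 ± 2.71 CPM in CD201+CD48-, CD201+CD48+ and CD201- cells. Thbs1, the platelet granule protein thrombospondin, averaged 149.8 ± 28.3, 2.50 ± 0.552 and 26.6 ± 3.04 CPM, a log2 difference of 5.93 ± 0.19 between the CD201+ populations (adjusted p = 3.41e-11). Itga2b and Itgb3 were named for patterns near that of Gata1, so their likeness to it follows from how they were chosen. Thbs1 was named for a small p-value, a rule that favours wide differences. Each had its lowest mean in CD201+CD48+ cells, but Itga2b was highest in CD201- cells and the others in CD201+CD48- cells.

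Vwf, the von Willebrand factor of platelets and of platelet-biased HSCs, took a different order, at 714.6 CPM ± 44.1 in CD201+CD48-, 125.0 ± 9.63 in CD201+CD48+ and 65.5 ± 8.63 in CD201- cells. It was higher in CD201+CD48+ than in CD201- cells, by 0.93 ± 0.10 (log2, adjusted p = 8.26e-06, edgeR). Ppbp, a platelet chemokine, averaged 31.6 ± 1.48, 1.91 ± 0.645 and 2.77 ± 0.298 CPM, and its difference between CD201+CD48+ and CD201- cells did not pass (adjusted p = 0.217). Of 20 genes that mark HSCs, 19 could be tested. In CD201+CD48- against CD201- cells, 17 were higher and 1 was lower, beside 24.2% and 23.9% of all tested genes. The list holds Procr, the gene of the CD201 gate, so that call follows from the sort. Summed levels were 4129 to 4217 CPM in CD201+CD48- and 2406 to 2426 CPM in CD201- libraries. CD201+CD48+ libraries lay between, at 3228 to 3280 CPM. The part of HSC content in the differences of the platelet genes and of Gata1 was not tested.

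**Figure D3:**
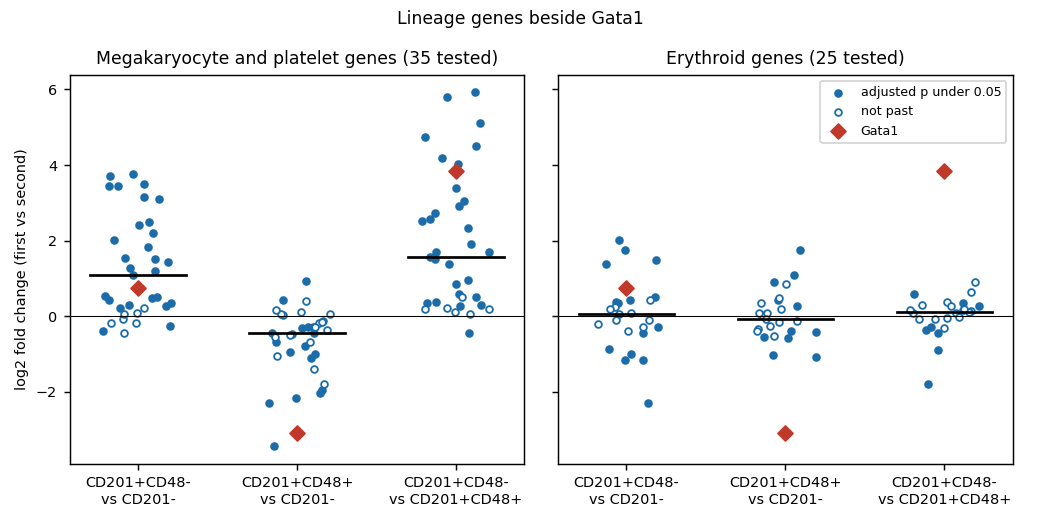
Log2 differences of the tested erythroid and megakaryocyte genes in the 3 comparisons, with 1 point per gene (filled at an adjusted p under 0.05), a line at the list median and Gata1 added as a diamond. The megakaryocyte medians are 1.08, -0.43 and 1.57, and the erythroid medians are 0.05, -0.08 and 0.11.

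Mast cells, basophils and eosinophils also express Gata1 and Gata2, and their markers were therefore measured beside these genes. Of 20 such genes 4 could be tested, and the list's summed level was 21.9 to 27.0 CPM in CD201+CD48-, 20.7 to 21.3 in CD201+CD48+ and 64.1 to 74.5 in CD201- libraries. Gzmb, a granzyme, stood at 31.9 CPM ± 4.27 in CD201- cells against 4.57 ± 1.56 and 1.65 ± 0.256 in CD201+CD48- and CD201+CD48+ cells. Cpa3, the mast cell carboxypeptidase, averaged 6.78 CPM in CD201- cells against 1.50 and 1.95, and Lat2 averaged 19.9 against 4.36 and 4.98. Mitf, a factor of mast cells and other lineages, went the other way, at 13.2, 9.80 and 8.30 CPM in CD201+CD48-, CD201+CD48+ and CD201- cells, and was higher in CD201+CD48- than in CD201- cells by 0.69 ± 0.19 (log2, adjusted p = 0.00627, edgeR). That call ended without CD201+CD48- replicate 1 (adjusted p = 0.0505). The tested markers thus gave 1 higher and 3 lower in that comparison, beside 24.2% and 23.9% of all tested genes. The defining mast cell proteases Tpsb2 and Cma1 had no read in any library. Ms4a2, which encodes the beta chain of the IgE receptor, gave 2, 4 and 4 reads over the CD201+CD48-, CD201+CD48+ and CD201- groups. In the same order Mcpt8 gave 0, 1 and 13 reads and Il1rl1 gave 3, 17 and 16. Fcer1a went the other way between CD201+CD48- and CD201- libraries, with 6, 0 and 2 reads, as did Hdc with 6, 6 and 1. None of these scarce genes could be tested. The part of mast cells, basophils and eosinophils in the Gata1 and Gata2 levels was not tested. Of 20 granulocyte and monocyte markers 12 could be tested. The list summed to 324.3 to 335.9 CPM in CD201+CD48-, 282.2 to 298.0 in CD201+CD48+ and 250.1 to 303.9 in CD201- libraries. In CD201+CD48- against CD201- cells 3 were higher and 5 lower, beside 24.2% and 23.9% of all tested genes. Mpo, the neutrophil granule peroxidase, was at 0 in all CD201+CD48- libraries and at 10.2 CPM ± 1.84 in CD201- cells. Lyz2 ran the other way, at 135.0, 89.3 and 56.1 CPM in CD201+CD48-, CD201+CD48+ and CD201- cells. Mpo and the listed marker Ctsg passed the filter on low counts only through CD201- libraries, which favours calls of these genes as higher there. Lymphoid markers, with 5 of 16 tested, summed to 241.3 to 273.1, 202.2 to 262.3 and 124.5 to 148.9 CPM in the same order of groups. The highest levels in the list were those of Notch1 (135.1 CPM in CD201+CD48- and 47.8 in CD201- cells) and Il2rg (84.4 and 50.3). Satb1 took the opposite order, at 7.06, 9.10 and 12.2 CPM in CD201+CD48-, CD201+CD48+ and CD201- cells. Flt3 was highest in CD201+CD48+ cells, at 36.5 CPM, against 19.04 in CD201+CD48- and 10.3 in CD201- cells. Il7r gave 2, 0 and 0 reads and Rag1 gave 0, 0 and 1. Lymphoid content was not tested.

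Gfi1b (chromosome 2, 28609450 to 28621982), a repressor that platelet and red cell formation require, was lowest in CD201+CD48- cells. It stood at 13.1, 10.9 and 12.4 CPM in the CD201+CD48- replicates, 23.6, 20.2 and 24.8 in the CD201+CD48+ replicates, and 35.9, 35.7 and 22.8 in the CD201- replicates. The CD201+CD48- libraries lay below all others. Replicate 3 of the CD201- cells fell within the CD201+CD48+ range, so those groups overlapped.

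Against CD201- cells, Gfi1b was lower by -1.37 ± 0.18 in CD201+CD48- cells (log2, adjusted p = 1.65e-05, edgeR). The difference between the CD201+ populations was -0.91 ± 0.18 (adjusted p = 0.00283). CD201+CD48+ and CD201- cells differed by -0.45 ± 0.16 (adjusted p = 0.0411), a call that was lost in 13 of 16 alternative settings, whereas without CD201- replicate 3 the difference was -0.63 (adjusted p = 3.64e-05). The CD201+CD48- population thus had the lowest Gfi1b mean, although 26 of 35 platelet and megakaryocyte genes were higher there than in CD201- cells.

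Gfi1, the close relative of Gfi1b that restrains HSC division and directs granulocyte fate, ran the other way. Gfi1 stood at 88.1, 83.6 and 90.1 CPM in the CD201+CD48- replicates, 37.9, 36.3 and 35.1 in the CD201+CD48+ replicates, and 3.10, 1.72 and 4.16 in the CD201- replicates. None of the groups overlapped, and the log2 differences were 4.86 ± 0.17 and 3.60 ± 0.18 against CD201- cells and 1.26 ± 0.11 between the CD201+ populations (adjusted p = 9.85e-12, 3.19e-09 and 1.14e-06, edgeR). The log2 ratio of Gfi1b to Gfi1 reads within a library averaged -2.84 ± 0.09 in CD201+CD48-, -0.68 ± 0.17 in CD201+CD48+ and 3.40 ± 0.94 in CD201- cells (SD, n = 3). Per kilobase of exon, Gfi1 exceeded Gfi1b in CD201+CD48- cells (27.4 against 6.62 CPM per kilobase) and Gfi1b exceeded Gfi1 in CD201- cells (17.2 against 0.940). In CD201+CD48+ cells the genes stood within their spread of each other, at 12.5 ± 1.29 for Gfi1b and 11.4 ± 0.45 CPM per kilobase for Gfi1.

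**Figure D4:**
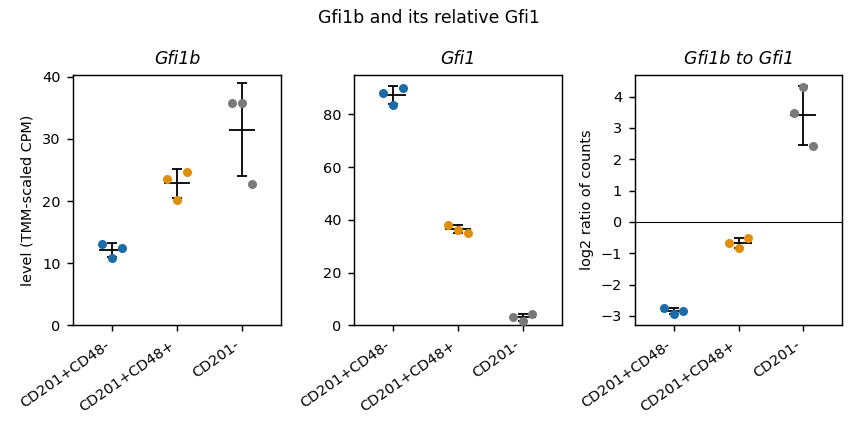
Levels of Gfi1b and Gfi1 (TMM-scaled CPM, linear axes from 0) and the log2 ratio of their counts in the 3 populations, with 1 point per library, a line at the mean and bars of 1 SD (n = 3). Gfi1b averages 12.1, 22.9 and 31.5 CPM and Gfi1 87.3, 36.4 and 2.99 CPM in CD201+CD48-, CD201+CD48+ and CD201- cells.

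Nfe2 (chromosome 15, 103248212 to 103258403), the leucine zipper factor that megakaryocytes need to release platelets, varied little. Its levels were 239.4, 242.3 and 236.0 CPM in the CD201+CD48- replicates, 238.9, 222.1 and 236.3 in the CD201+CD48+ replicates, and 275.6, 282.3 and 249.4 in the CD201- replicates. Every CD201- library lay above every CD201+ library. Nfe2 was lower in the CD201+CD48+ than in the CD201- population by -0.21 ± 0.07 (log2, adjusted p = 0.0417, edgeR), a call that 13 of 16 alternative settings lost. With CD201- replicate 3 left out, that difference was -0.26 (adjusted p = 0.000288). The one of CD201+CD48- from CD201- cells, -0.17 ± 0.07 with all libraries (adjusted p = 0.0704), was -0.22 (adjusted p = 0.0011). Its relative Nfe2l1, a ubiquitous stress factor, was lower in the CD201+CD48+ than in the CD201- population by -0.46 ± 0.07 (adjusted p = 0.000272).

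The 3 genes of the TAL1 complex did not share a direction. Tal1 (chromosome 4, 115056426 to 115071755), a basic helix-loop-helix factor required for blood formation, stood at 131.2, 129.6 and 135.7 CPM in the CD201+CD48- replicates, 114.8, 110.0 and 121.0 in the CD201+CD48+ replicates, and 151.4, 165.0 and 166.8 in the CD201- replicates. The groups did not overlap, with CD201+CD48+ cells the lowest. Tal1 was lower than in CD201- cells by -0.29 ± 0.07 in CD201+CD48- cells and by -0.48 ± 0.07 in CD201+CD48+ cells (log2, adjusted p = 0.00434 and 0.000161, edgeR). The call in CD201+CD48- cells ended when libraries were scaled by total counts alone (-0.11, adjusted p = 0.202). Between the CD201+ populations the difference of 0.20 ± 0.07 did not pass (adjusted p = 0.0861), but it did with those groups fitted alone (adjusted p = 0.02), with scaling by total counts alone (adjusted p = 0.041) and once CD201- replicate 3 was left out (adjusted p = 0.0179).

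Lmo2 (chromosome 2, 103957903 to 103981878), the adaptor that bridges TAL1 and GATA factors, moved the other way. It stood at 113.5, 159.2 and 165.2 CPM in the CD201+CD48- replicates, 141.8, 113.0 and 125.7 in the CD201+CD48+ replicates, and 76.4, 93.8 and 84.8 in the CD201- replicates. All CD201+ libraries lay above all CD201- libraries. Relative to CD201- cells, Lmo2 was higher in each CD201+ population, by 0.77 ± 0.14 and 0.58 ± 0.13 (log2, adjusted p = 0.000341 and 0.0058, edgeR), and the second call ended without CD201- replicate 3 (0.58, adjusted p = 0.1). The CD201+ populations overlapped, with a difference of 0.20 ± 0.13 (adjusted p = 0.359).

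Lyl1 (chromosome 8, 84701423 to 84704716), a close relative of Tal1 that can stand in for it in adult HSCs, was low and variable. It stood at 9.36, 19.5 and 19.5 CPM in the CD201+CD48- replicates, 27.3, 20.2 and 18.7 in the CD201+CD48+ replicates, and 22.8, 23.7 and 14.5 in the CD201- replicates. All groups overlapped, and its log2 differences of -0.37 ± 0.27, 0.11 ± 0.25 and -0.49 ± 0.26 did not pass (adjusted p = 0.282, 0.769 and 0.248, edgeR). The last passed when no filter on low counts was set (adjusted p = 0.0209). Tal1 exceeded Lyl1 in every population, at 25.8, 22.5 and 31.5 against 5.4, 7.4 and 6.81 CPM per kilobase. The log2 ratio of their reads was 3.11 ± 0.60, 2.40 ± 0.31 and 3.01 ± 0.44 in CD201+CD48-, CD201+CD48+ and CD201- cells (SD, n = 3). Lyl1 overlaps Nfix in the RefSeq annotation, and no label or file header says whether the counting used strand. In all, 8 of the 10 genes overlap another annotated gene, which makes their counts less certain, and Klf1 and Nfe2 do not.

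Partners and cofactors of these complexes were called at shares to be read beside the 48.1%, 29.1% and 15.4% of all tested genes called in the 3 comparisons. Of 26, 3 were higher and 8 lower in the CD201+CD48- than in the CD201- population, 1 higher and 3 lower in the CD201+CD48+ than in the CD201- population, and 1 higher and 1 lower between the CD201+ populations. When libraries were scaled by total counts alone, the first of these splits turned to 8 higher and 3 lower and the second to 4 higher and 2 lower. Without CD201- replicate 3, the second was 1 higher and 6 lower and the last 2 higher and 5 lower. Without any 1 of the 6 CD201+ libraries, none was lower in the last. Tcf4, an E-protein that pairs with TAL1-type factors, was higher in each CD201+ population by 0.54 ± 0.07 and 0.41 ± 0.07 (log2, adjusted p = 1.67e-05 and 0.000518, edgeR). Tcf3, the E-protein gene of E2A, was lower by -0.40 ± 0.09 and -0.35 ± 0.08 (adjusted p = 0.00129 and 0.00602). Maff, a small MAF partner of NFE2, was low in all groups, at 7.84 CPM ± 2.05 in the CD201+CD48- group, 3.81 ± 0.136 in the CD201+CD48+ group and 3.13 ± 0.463 in the CD201- group. It was higher in CD201+CD48- cells in both comparisons (adjusted p = 0.000739 and 0.00818), and the second call ended without CD201+CD48- replicate 1 (adjusted p = 0.07).

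Fli1 (chromosome 9, 32422204 to 32543432), an ETS factor of megakaryocytes, endothelium and HSCs, was highest in CD201+CD48- cells. Its levels were 268.0, 242.3 and 261.0 CPM in the CD201+CD48- replicates, 211.5, 221.1 and 222.2 in the CD201+CD48+ replicates, and 181.9, 170.6 and 215.9 in the CD201- replicates. The CD201+CD48- libraries lay above all others, and CD201- replicate 3 overlapped the CD201+CD48+ range. Fli1 was higher in CD201+CD48- than in CD201- cells, by 0.44 ± 0.09 (log2, adjusted p = 0.000671, edgeR). The differences of 0.20 ± 0.09 between CD201+CD48+ and CD201- cells and of 0.24 ± 0.09 between the CD201+ populations did not pass (adjusted p = 0.0914 and 0.0801). Both passed once CD201- replicate 3 was left out, the former at 0.31 (adjusted p = 6.43e-05). By the measure of likeness used for Gata1, the patterns closest to Fli1 were those of Ctnna1, an adhesion protein, at 0.034, Lgals8, a galectin, at 0.053 and Nhsl2 at 0.065.

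Runx1 (chromosome 16, 92601466 to 92826074), the core-binding factor needed for HSC emergence and platelet formation, was not called in any comparison. It stood at 333.3, 351.7 and 337.9 CPM in the CD201+CD48- replicates, 321.4, 307.9 and 325.7 in the CD201+CD48+ replicates, and 347.7, 322.5 and 319.5 in the CD201- replicates. Its log2 differences in the 3 comparisons were 0.05 ± 0.07, -0.05 ± 0.07 and 0.10 ± 0.07, none of which passed (adjusted p = 0.622, 0.631 and 0.409, edgeR). With scaling by total counts alone, the first was 0.21 (adjusted p = 0.0236). Runx1 and Nfe2 were the most alike pair among the 9 tested genes over the 9 libraries, at a root mean square log2 difference of 0.10. That measure is small for any genes that vary little. The genes closest to Runx1 among all candidates were Clasrp, Irak1 and Tmem164, at 0.046 to 0.047.

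Some relatives of the 10 genes differed widely between the populations. Of 22 tested relatives, 10 were higher and 6 lower in the CD201+CD48- than in the CD201- population, 5 higher and 6 lower in the CD201+CD48+ than in the CD201- population, and 6 higher and 2 lower between the CD201+ populations. These counts stand beside 48.1%, 29.1% and 15.4% of all tested genes. With scaling by total counts alone, 3 were lower in the first comparison and 8 higher in the second, and without any 1 of the 6 CD201+ libraries, or without CD201- replicate 1, 1 was lower in the last. Ets1, an ETS factor of lymphocytes and endothelium, averaged 37.4 CPM ± 6.69, 17.1 ± 0.637 and 4.52 ± 1.21 in CD201+CD48-, CD201+CD48+ and CD201- cells. Its log2 differences were 3.05 ± 0.19, 1.91 ± 0.21 and 1.14 ± 0.15 (adjusted p = 7.27e-09, 8.69e-06 and 7.8e-05, edgeR). Runx3 took the opposite order, at 32.8 ± 0.436, 75.5 ± 8.31 and 108.8 ± 6.49 CPM, with differences of -1.73 ± 0.10, -0.52 ± 0.09 and -1.21 ± 0.10 (adjusted p = 2.51e-09, 0.000473 and 7.94e-07). Lmo1, the relative of Lmo2, averaged 21.5 ± 1.10, 12.8 ± 1.01 and 5.10 ± 2.57 CPM, and its differences from CD201- cells were 2.07 ± 0.24 and 1.32 ± 0.25 (adjusted p = 4.51e-06 and 0.00107).

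The levels of the 10 genes were ordered by CPM per kilobase of annotated exon averaged over all 9 libraries. Nfe2 was the highest, at 75.4 CPM per kilobase, followed by Lmo2 at 51.1 and Fli1 at 50.6. Tal1 at 26.6, Zfpm1 at 26.4 and Runx1 at 26.0 came next with close means over all libraries, but their order changed between populations. In CD201- cells Tal1 at 31.5 ± 1.65 and Zfpm1 at 31.1 ± 0.99 lay above Runx1 at 26.0 ± 1.22 CPM per kilobase. In CD201+CD48+ cells Tal1 at 22.5 ± 1.08 lay below Runx1 at 25.1 ± 0.73. Lmo2 and Fli1 lay within their spread of each other in CD201+CD48- and in CD201+CD48+ cells, at 62.5 ± 12.1 against 58.8 ± 3.04 and 54.3 ± 6.18 against 49.9 ± 1.35. Gfi1b at 12.1 and Lyl1 at 6.54 were lower. Gata1 at 0.925 and Klf1 at 0.329 CPM per kilobase were the lowest, while Gata2 stood at 27.6. With the length of the longest transcript in place of the exon union, Runx1 at 47.6 CPM per kilobase moved above Tal1 at 29.0, and Gata1 and Klf1 were still the lowest, at 1.21 and 0.329. By that length Runx1 lay above Tal1 in CD201+CD48-, CD201+CD48+ and CD201- cells, at 49.2 against 28.2, 45.9 against 24.6 and 47.6 against 34.4. The change of order between Runx1 and Tal1 thus rests on the exon union.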

How the data were processed

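Bulk RNA sequencing was measured in 9 libraries. Each library came from over 5000 sorted cells, with SMARTer cDNA and paired reads of 36 nt, per the labels' protocols. The deposited table holds raw counts per gene symbol, not normalized by the authors. The submitters' processing notes name mm10 and DESeq2 without versions. No source used here gives the aligner, the counting tool, its annotation or whether strand was used. A second deposited table, of normalized values, was not analysed here, nor were 3 columns without a matching label.

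All 9 libraries were fitted together with edgeR 4.0.16 (R 4.3.3): filterByExpr with a minimum count of 10, TMM scaling, a term for population, and quasi-likelihood tests adjusted over 11619 genes. Standard errors are the log2 difference over the root of F. CPM are scaled by TMM. Exon lengths came from GENCODE vM39 on GRCm39, used as lengths only. DESeq2 1.42.0 was an alternative. Tested on simulated data, the fit recovered 62.7%, 62.7% and 74.6% of genes changed by 1.5-fold and 77.6%, 82.1% and 91% of genes changed by 2-fold in CD201+CD48- against CD201-, CD201+CD48+ against CD201- and CD201+CD48- against CD201+CD48+ cells. Of its calls, 5.42%, 5.33% and 9.23% were false, each above the 5% aimed at. The simulation changed 67, 67 and 66 of 11619 genes by 1.5-fold, 2-fold and 4-fold, far fewer than were called in the data. These rates may therefore not hold for the comparisons themselves.

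The 10 genes, the lists and the tests were chosen with earlier results of these data known. Besides the 10 genes, those named were Gata2, Gfi1 and Spi1, the 3 nearest patterns of Gata1, Fli1 and Runx1, and the 4 smallest p-values per list and comparison. The scarce markers Alas2, Slc4a1, Tpsb2, Cma1, Ms4a2, Mcpt8, Il1rl1, Fcer1a, Hdc, Il7r and Rag1, and Hbb-bt, were named after their values were seen. So were Hbb-bs, Hba-a1, Hba-a2, Gp1bb, Alox12, F2rl2, Gp6 and Clec1b. Some items that these rules would name are not reported here.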

Additional observations from a re-analysis of the deposited data

How the results depend on the processing

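Across 428 repeats of the 27 tests on the 9 genes, 384 kept their side of the threshold, 28 lost a call, 16 gained one and no called value changed sign. Of the 384, 381 kept their sign, and the other 3 were uncalled differences of Runx1 and Lyl1 between CD201+CD48+ and CD201- cells, which ran from -0.07 to 0.08 and from -0.08 to 0.24 (log2). The number of the 9 genes called between CD201+CD48+ and CD201- cells, 6 with all genes and groups, was 3 with only genes averaging at least 10 CPM and 3 with those groups fitted alone. Between the CD201+ populations it was 4 with scaling by library size alone, 1 with the 10 CPM minimum, under which Gata1 was not tested, and 4 with those groups fitted alone. All genes called there rose from 1785 to 3339 with those groups fitted alone. Leaving out 1 library at a time gave 4 to 5, 4 to 6 and 2 to 4 of the 9 genes and 4754 to 6092, 2338 to 4242 and 1023 to 3534 of all genes in the 3 comparisons. The counts of 4 and 3534 between the CD201+ populations came without CD201- replicate 3. The cause was not tested.

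Scaling by library size alone moved the median of all genes by 0.17, 0.13 and 0.036 (log2) and the split of higher and lower calls from 2807 and 2778 to 3974 and 1685, from 1723 and 1661 to 2701 and 851, and from 1052 and 733 to 1148 and 610. The replicate numbers did not pair the samples: correlations of same-numbered libraries ran from -0.113 to 0.0447, and 0 of 9 libraries were closest to their own number. With replicate as a block, 5322, 3038 and 1441 genes and 4, 4 and 2 of the 9 were called. The reads behind Klf1 and Gata1 limit both genes.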
